A study of Mus musculus with 24 samples.

Results

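The collagen genes were described across whole mouse adrenal glands with and without a conditional knockout of Prkar1a, which encodes a regulatory subunit of protein kinase A and restrains the kinase. Every row of the deposited value table with exactly 1 gene symbol of a collagen chain was taken, and the probe set with the highest mean stood for a gene with several. This gave 44 collagen chains among 21957 genes. Signal exceeded log2 5 in at least 4 of the 24 arrays for 37 of them, and these 37 were tested together with all 14411 genes that passed the same filter. By class, 9 of 11 fibrillar chains, 7 of 8 basement membrane chains (collagen IV and the vessel-wall collagens XV and XVIII) and 21 of 25 other chains passed. The 7 chains that did not pass were Col10a1, Col11a1, Col19a1, Col24a1, Col4a6, Col6a4 and Col9a1. Nearest outside the threshold, Col24a1 exceeded it in 2 arrays and Col4a6 in 1 array. Nearest inside it, Col17a1 did so in 10 arrays, Col28a1 in 13, Col8a2 in 17 and Col11a2 in 19. Col28a1 was the only passing chain with a group, KO females, in which no array exceeded the threshold.

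There were 6 groups of 4 Affymetrix arrays, each labelled a biological replicate: females, intact males and males gonadectomised (GDX) for the last 2 months, each sex class with a WT and a KO group, all at 7 months of age on a mixed sv129-C57Bl/6 background. All KO mice were Prkar1a fl/fl;cre/+;mTmG/mTmG, with Cre expressed from the Cyp11b2 locus, which encodes aldosterone synthase of the zona glomerulosa. The WT groups were not genetically alike. WT females carried Cre and 1 floxed allele (Prkar1a fl/+;cre/+;mTmG/mTmG). WT intact males carried 2 floxed alleles without Cre (Prkar1a fl/fl;+/+;mTmG/mTmG). Among WT GDX males, array 1 was Prkar1a +/+;+/+;mTmG/mTmG, array 2 Prkar1a +/+;cre/+;mTmG/+, array 3 Prkar1a +/+;cre/+;mTmG/mTmG and array 4 Prkar1a fl/+;cre/+;mTmG/mTmG. The effects of Cre or of 1 floxed allele therefore cannot be told apart from sex or gonadectomy in comparisons across WT groups. KO against WT also differs in Cre for intact males but not for females, so Cre cannot be told apart from the knockout in intact males, nor from sex in the difference of the KO effect between females and intact males. In GDX males Cre was absent from WT array 1 alone, which touches the difference of the KO effect between GDX and intact males in the same way. In whole glands, fewer cells of a type and less RNA per cell cannot be told apart either.

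Prkar1a itself, the target of the deletion, fell with the KO label in females by 1.43 ± 0.23 on the log2 scale (SE; adjusted p = 5.83e-05). Among GDX males it fell by 1.20 ± 0.23 (adjusted p = 0.00477). In intact males the difference was -0.92 ± 0.23 (adjusted p = 0.16), with 6.89, 8.08, 8.47 and 8.13 in KO arrays 1 to 4 against 8.72 to 8.91 in WT arrays, so that all KO arrays were lower but array 1 was far lower than the others. The 10 adrenal cortex markers tested had a mean log2 signal of 11.51 to 12.01 over the 24 arrays. A gene was called when its adjusted p was under 0.05 in limma (Benjamini-Hochberg adjustment over all 14411 genes), and changes are given as log2 differences ± SE with 4 arrays per group.

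Collagens are assembled from several chains wound into a triple helix inside the cell, then secreted and built into the matrix. Fibrillar collagens I, III and V form the cables of the capsule and of connective tissue, and fibroblast-like cells make most of them. Collagen IV forms the sheet of the basement membrane that surrounds cortical cell cords, medullary nests and the sinusoidal vessels of the adrenal gland. Other members decorate fibrils, form beaded filaments, or span the plasma membrane with a collagenous outer part.

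A single array stood apart for collagen and had to be considered first. In KO GDX male array 2, Col1a1 was 10.85 against 7.01 to 7.29 in the other arrays of its group. The difference from their mean was 3.66 or 12.6-fold, and no other of the 14411 genes was raised more above that mean. Col3a1 (10.66, difference 3.58) was next in that order, and Col1a2 (10.22, difference 2.73) was at rank 7. In all, 9 of 37 collagen chains exceeded the mean of the other arrays by more than 1 log2 unit in this array, while 121 genes (0.84%) did so among all tested. In each of the other 23 arrays, 0 of 37 chains did. The 9 chains were Col1a1, Col1a2, Col3a1 and Col5a2 of the fibrillar class, Col6a2, Col6a3 and Col6a5 of the beaded filaments, the fibril-associated Col14a1, and Col15a1. Of the other fibrillar chains, Col5a1 (8.37, difference 0.70) was above the range of the other arrays too, while Col5a3, Col27a1, Col2a1 and Col11a2 differed by 0.02, -0.08, -0.22 and 0.04. Of the other basement membrane chains, Col18a1, Col4a1, Col4a5 and Col4a2 were above that range (differences 0.61, 0.37, 0.34 and 0.29), and Col4a3 and Col4a4 were not (0.03 and -0.18). Genes of connective tissue and acute response chosen after their values were seen were also high, with Fn1 (fibronectin) at 10.39 against 6.02 to 8.62, Dpt (dermatopontin, which binds collagen fibrils) at 10.07 against 6.41 to 7.72 and Saa3 (serum amyloid A) at 9.41 against 4.84 to 7.73. The adipocyte marker Ucp1 was far lower, at 4.72 against 8.69 to 10.29 (difference -4.71), more than the rise of Col1a1. The other adipocyte markers differed by -0.35 (Fabp4) to 0.76 (Lep). Beside Dpt, the capsule and mesenchyme markers Lum, Wt1, Dcn, Pdgfra and Mgp differed by 1.75, 1.0, 0.58, 0.39 and 0.19. Nr2f2, Gli1, Gpc3, Tcf21 and Rspo3 differed by 0.02, 0.0, 0.0, -0.16 and -0.28. The mean of the 9 macrophage markers ranged from 7.18 to 8.27 in KO GDX males and was highest in this array. The part of these genes and markers in the collagen values was not tested. Because all 24 arrays share 1 estimate of spread for each gene, this array also widened the errors of Col1a1, Col1a2 and Col3a1 in every comparison, and values without it are given beside the main results it moved.

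**Figure D1:**
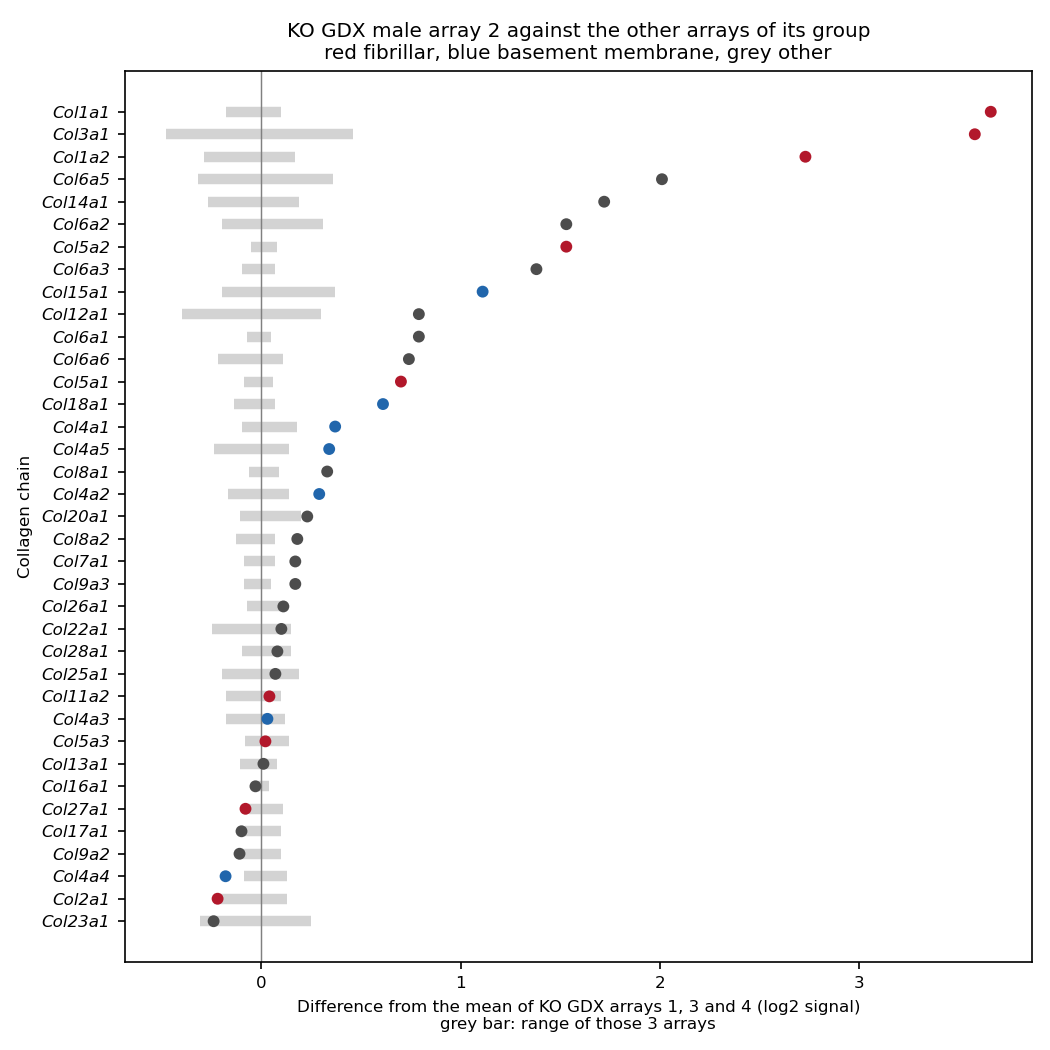
Each point is 1 collagen chain in KO GDX male array 2, plotted as its log2 difference from the mean of the other arrays of the group (x axis), with the range of those arrays as a grey bar; fibrillar chains are red, basement membrane chains blue and others grey. Col1a1, Col3a1 and Col1a2 lie at 3.66, 3.58 and 2.73, while Col5a3 and Col4a3 lie inside the grey bars.

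In females, Prkar1a knockout was accompanied by lower signal of nearly all basement membrane chains. The collagen V chains Col5a1 and Col5a3, but not Col5a2, and 3 transmembrane collagens had higher signal. Of 37 chains, 6 rose and 7 fell, against a background of 13.9% of all genes rising and 18.7% falling (32.6% in either direction). The arrays of the female groups did not overlap for 18 chains, 7 higher and 11 lower in KO, which held for 32.8% of all genes. The median change was -0.04 over the chains and -0.02 over all genes. By class, 6 of 7 basement membrane chains fell and 0 rose (median -0.48), 2 of 9 fibrillar chains rose and 0 fell (median 0.01), and 4 of 21 other chains rose and 1 fell (median 0.09). With KO GDX male array 2 left out, the counts in females were 8 risen and 11 fallen, with 33.1% of all genes called.

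**Figure D2:**
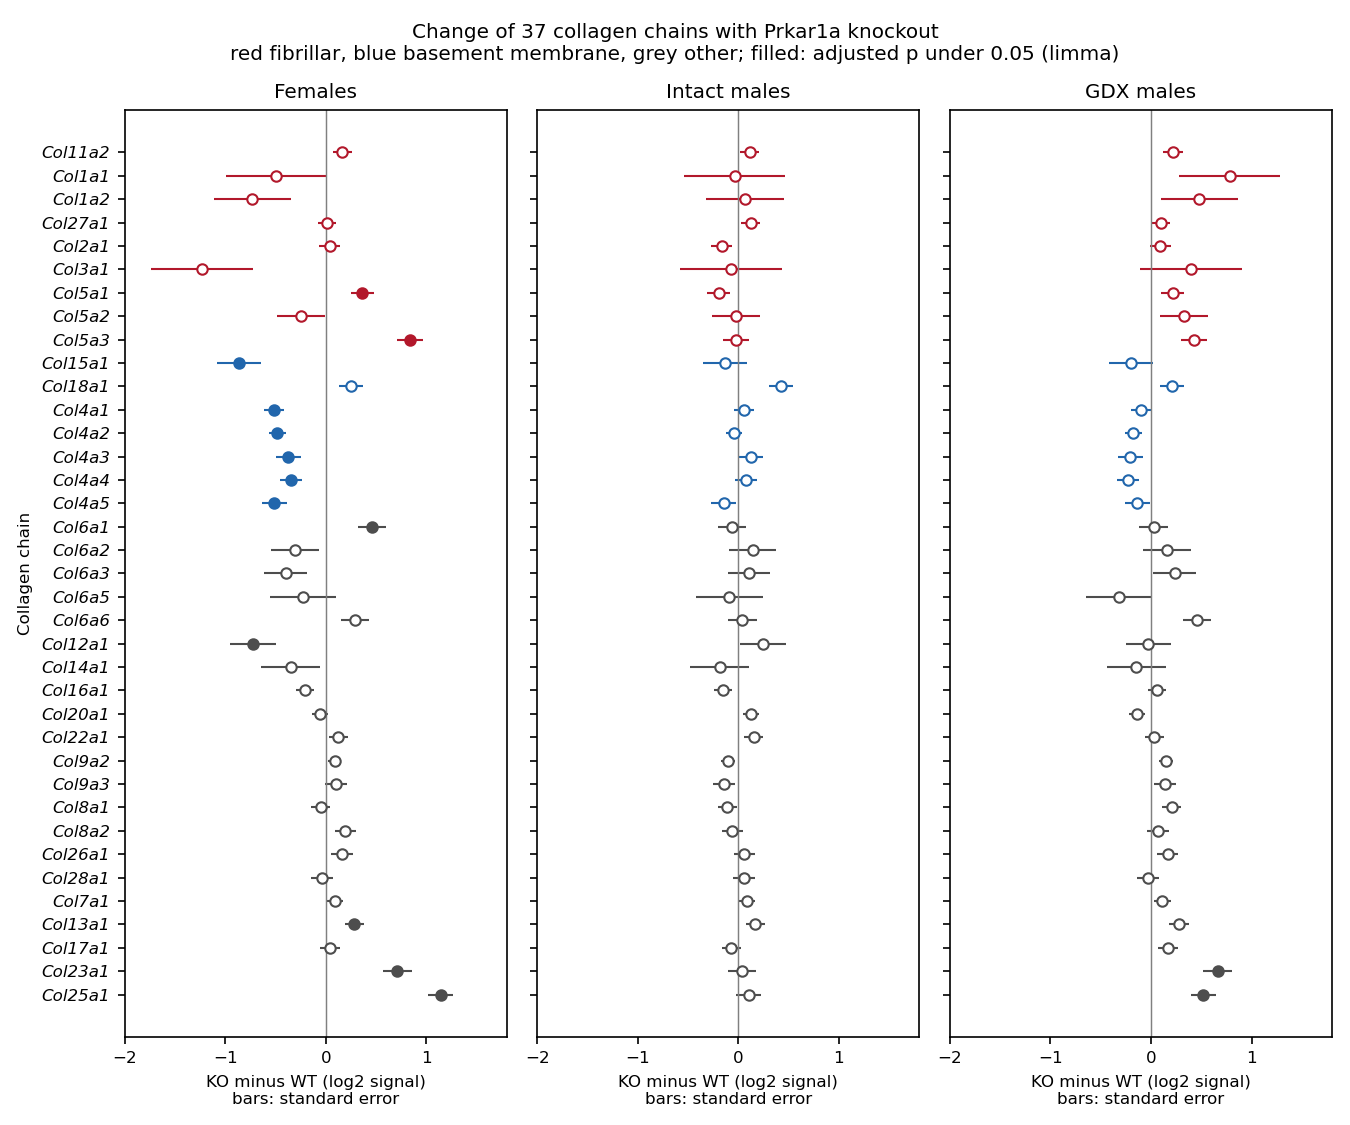
Log2 difference between KO and WT arrays with its standard error (x axis) for each of the 37 chains tested (y axis), with females at left, intact males in the middle and GDX males at right; filled points have an adjusted p under 0.05 in limma over all genes and all 24 arrays. Filled points appear for 13 chains at left, 0 in the middle and 2 at right; the wide bars of Col1a1, Col1a2 and Col3a1 include KO GDX male array 2.

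Col4a1 and Col4a2 encode the chains of the collagen IV molecule found in most basement membranes. Col4a1 had a log2 signal of 8.06, 8.10, 8.18 and 7.96 in WT female arrays 1 to 4 and of 7.62, 7.42, 7.69 and 7.49 in KO female arrays. In intact males Col4a1 was 8.0, 8.14, 8.22 and 8.18 in WT and 8.20, 8.27, 8.37 and 7.93 in KO arrays. The GDX males were at 8.0, 7.94, 7.84 and 7.90 (WT) and 7.91, 8.11, 7.66 and 7.63 (KO). The KO female arrays lay below all other arrays, apart from overlap with the KO GDX male arrays 3 and 4. WT female arrays 1 to 4 gave a log2 signal of 7.86, 7.96, 7.92 and 7.83 for Col4a2, and KO female arrays gave 7.38, 7.33, 7.57 and 7.38. In intact males Col4a2 was 7.87, 7.84, 7.92 and 7.77 in WT and 7.69, 7.93, 7.96 and 7.65 in KO arrays. GDX males showed 7.75, 7.72, 7.76 and 7.79 in WT and 7.65, 7.80, 7.53 and 7.34 in KO arrays. The KO female arrays again lay below every WT array, and only KO GDX male arrays 3 and 4 reached their range. The change in females was -0.52 ± 0.10 for Col4a1 (adjusted p = 0.000422) and -0.48 ± 0.08 for Col4a2 (adjusted p = 0.000162). In intact males the differences were 0.06 (95% confidence interval -0.15 to 0.26) and -0.04 (-0.22 to 0.13). The KO effect differed between females and intact males by -0.57 ± 0.14 for Col4a1 (adjusted p = 0.00901) and by -0.44 ± 0.12 for Col4a2 (adjusted p = 0.0159).

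The genes Col4a1 and Col4a2 lie head to head on chromosome 8 and are read in opposite directions from annotated starts 21 bases apart. Their promoter windows (RefSeq, GRCm38.p6, 250 bases before to 50 after each start) are shown because the windows overlap and both chains fell in KO females. They are chr8:11312777-11313076 on the minus strand for Col4a1 and chr8:11312555-11312854 on the plus strand for Col4a2. Capitals mark the 78 bases that the windows share, which appear as reverse complements of each other. All of these bases lie after the annotated start of either gene or of both, as the annotated genes overlap at their starts.
Col4a1: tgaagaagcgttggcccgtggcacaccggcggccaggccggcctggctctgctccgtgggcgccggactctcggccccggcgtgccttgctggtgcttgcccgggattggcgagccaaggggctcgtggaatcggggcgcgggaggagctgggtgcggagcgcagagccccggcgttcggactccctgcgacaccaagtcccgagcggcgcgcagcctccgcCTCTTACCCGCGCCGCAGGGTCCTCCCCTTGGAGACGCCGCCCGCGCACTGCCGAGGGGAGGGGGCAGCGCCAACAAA
Col4a2: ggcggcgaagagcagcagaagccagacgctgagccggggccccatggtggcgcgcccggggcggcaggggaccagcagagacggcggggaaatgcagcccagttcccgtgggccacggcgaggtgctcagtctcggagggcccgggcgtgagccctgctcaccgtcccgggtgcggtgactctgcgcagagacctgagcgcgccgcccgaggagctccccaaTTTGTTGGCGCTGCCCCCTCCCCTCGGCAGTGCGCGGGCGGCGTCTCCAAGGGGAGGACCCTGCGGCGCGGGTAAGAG
Both windows hold the CCAAT motif, searched on both strands and found in 37.4% of the 32851 promoter windows of the table and in 13 of the 35 collagen chains that had a window. Neither holds the cAMP response element TGACGTCA, found in 1.79% of all windows and, among these 35 chains, in Col24a1 alone. A match or its absence describes these letters in this window and no more.

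Col4a3, Col4a4 and Col4a5 form the collagen IV of specialised membranes such as the kidney filter. Col4a4 was 5.75, 5.57, 5.76 and 5.92 in the WT female arrays 1 to 4 and 5.40, 5.57, 5.31 and 5.33 in the KO female arrays. In intact males Col4a4 was 5.76, 5.77, 6.03 and 5.81 in WT and 6.01, 6.08, 6.01 and 5.59 in KO arrays. The GDX males were at 5.68, 6.08, 5.73 and 5.67 (WT) and 5.56, 5.43, 5.52 and 5.74 (KO). Array 2 of WT and of KO females read 5.57, equal only after rounding, so Col4a4 is among the chains counted above as not overlapping. WT and KO arrays of both kinds of male overlapped. The change was -0.35 ± 0.11 for Col4a4 (adjusted p = 0.0185), -0.37 ± 0.12 for Col4a3 (adjusted p = 0.023) and -0.51 ± 0.13 for Col4a5 (adjusted p = 0.00344). Col4a4 lost its call without WT female array 4 (-0.29, adjusted p = 0.0633) or KO female array 4 (-0.33, adjusted p = 0.0512). Col4a3 lost it without WT female arrays 1, 3 or 4 or KO female array 1, with adjusted p of 0.0588, 0.0531, 0.0626 and 0.0638. Both signals were dim: KO females averaged 5.25 for Col4a3 and 5.40 for Col4a4, close to the array medians of 5.20 to 5.29. Col15a1 encodes a collagen that links basement membranes of vessels and muscle to the matrix around them, and the log2 signal of Col15a1 in arrays 1 to 4 was 6.23, 6.49, 6.50 and 5.98 in WT females and 5.39, 5.44, 5.73 and 5.20 in KO females. In intact males Col15a1 was 6.14, 6.26, 6.35 and 6.20 in WT and 5.93, 6.11, 6.49 and 5.88 in KO arrays. Among GDX males, the WT arrays read 6.27, 6.49, 6.59 and 5.92 and the KO arrays 6.21, 6.95, 5.67 and 5.64. All KO female arrays lay below all WT female arrays, and the change was -0.86 ± 0.22 (adjusted p = 0.00445). The exception in this class was Col18a1, the source of the fragment endostatin. It was 6.36, 6.24, 6.39 and 6.20 in WT and 6.76, 6.52, 6.45 and 6.45 in KO female arrays 1 to 4, higher in every KO array, with a difference of 0.25 ± 0.12 (adjusted p = 0.119). Leaving out KO GDX male array 2, it passed the threshold at the same difference (adjusted p = 0.0412).

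The fibrillar chains called in females over all arrays were both of collagen V, and they rose. Col5a1 and Col5a3 encode chains of collagen V, which sits inside collagen I fibrils and limits their width. The remaining collagen V chain, Col5a2, was not called. Its mean was lower in KO (5.46) than in WT females (5.71), with overlapping arrays. The log2 signal of Col5a3 in arrays 1 to 4 was 8.29, 8.26, 8.37 and 8.14 in WT females and 9.09, 9.07, 8.96 and 9.28 in KO females. In intact males Col5a3 was 8.08, 8.26, 7.88 and 7.72 in WT and 8.05, 7.74, 8.19 and 7.87 in KO arrays. The GDX males were at 8.48, 8.10, 8.23 and 8.75 (WT) and 8.73, 8.84, 8.95 and 8.76 (KO). The KO female arrays were higher than all arrays of the other groups. Col5a1 had a log2 signal of 7.34, 7.38, 7.5 and 7.54 in WT female arrays 1 to 4 and of 7.86, 7.74, 7.86 and 7.75 in KO female arrays. In intact males Col5a1 was 7.67, 7.55, 7.53 and 7.47 in WT and 7.22, 7.44, 7.48 and 7.30 in KO arrays. GDX males showed 7.59, 7.69, 7.57 and 7.65 in WT and 7.69, 8.37, 7.58 and 7.73 in KO arrays. The KO female arrays were above all WT female arrays, and KO GDX male array 2 was the highest of all 24. The change in females was 0.84 ± 0.13 for Col5a3 (adjusted p = 3.91e-05) and 0.36 ± 0.11 for Col5a1 (adjusted p = 0.0174). Col5a1 rests on 1 of 2 probe sets: the other one, with a mean log2 signal of 4.92, differed by 0.04, and the mean of both by 0.20 (adjusted p = 0.061). Without WT female array 1, Col5a1 differed by 0.33 (adjusted p = 0.0515).

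Col1a1 and Col1a2 are the chains of collagen I, and Col3a1 forms collagen III, which is laid down with it. WT female arrays 1 to 4 gave a log2 signal of 7.60, 7.57, 7.90 and 7.62 for Col3a1, and KO female arrays gave 6.43, 6.64, 6.69 and 6.02. In intact males Col3a1 was 7.05, 7.34, 7.22 and 6.90 in WT and 7.09, 7.02, 7.23 and 6.88 in KO arrays. Among GDX males, the WT arrays read 7.57, 7.58, 8.01 and 7.15 and the KO arrays 7.54, 10.66, 7.11 and 6.60. The KO female arrays were lower than every other array except KO GDX male array 4, whose 6.60 lay within their range. The log2 signal of Col1a1 in arrays 1 to 4 was 7.24, 7.41, 7.37 and 7.31 in WT females and 6.56, 7.08, 6.94 and 6.76 in KO females. In intact males Col1a1 was 7.21, 7.46, 7.33 and 7.12 in WT and 7.20, 7.30, 7.52 and 6.96 in KO arrays. The GDX males were at 7.43, 7.33, 7.42 and 7.11 (WT) and 7.26, 10.85, 7.29 and 7.01 (KO). WT and KO female arrays did not overlap, and KO GDX male array 2 was far above all others. With all 24 arrays, the differences in females were -1.23 ± 0.51 for Col3a1 (adjusted p = 0.0679), -0.73 ± 0.38 for Col1a2 (adjusted p = 0.153) and -0.50 ± 0.50 for Col1a1 (adjusted p = 0.483), and none was called. Without KO GDX male array 2, which is in neither group, the same differences had an SE of 0.18 (adjusted p = 4.13e-05), 0.13 (adjusted p = 0.000264) and 0.12 (adjusted p = 0.00285), and all of them were called. With only the 8 female arrays in the fit they were called as well (adjusted p = 0.000411, 0.000239 and 0.00832).

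**Figure D3:**
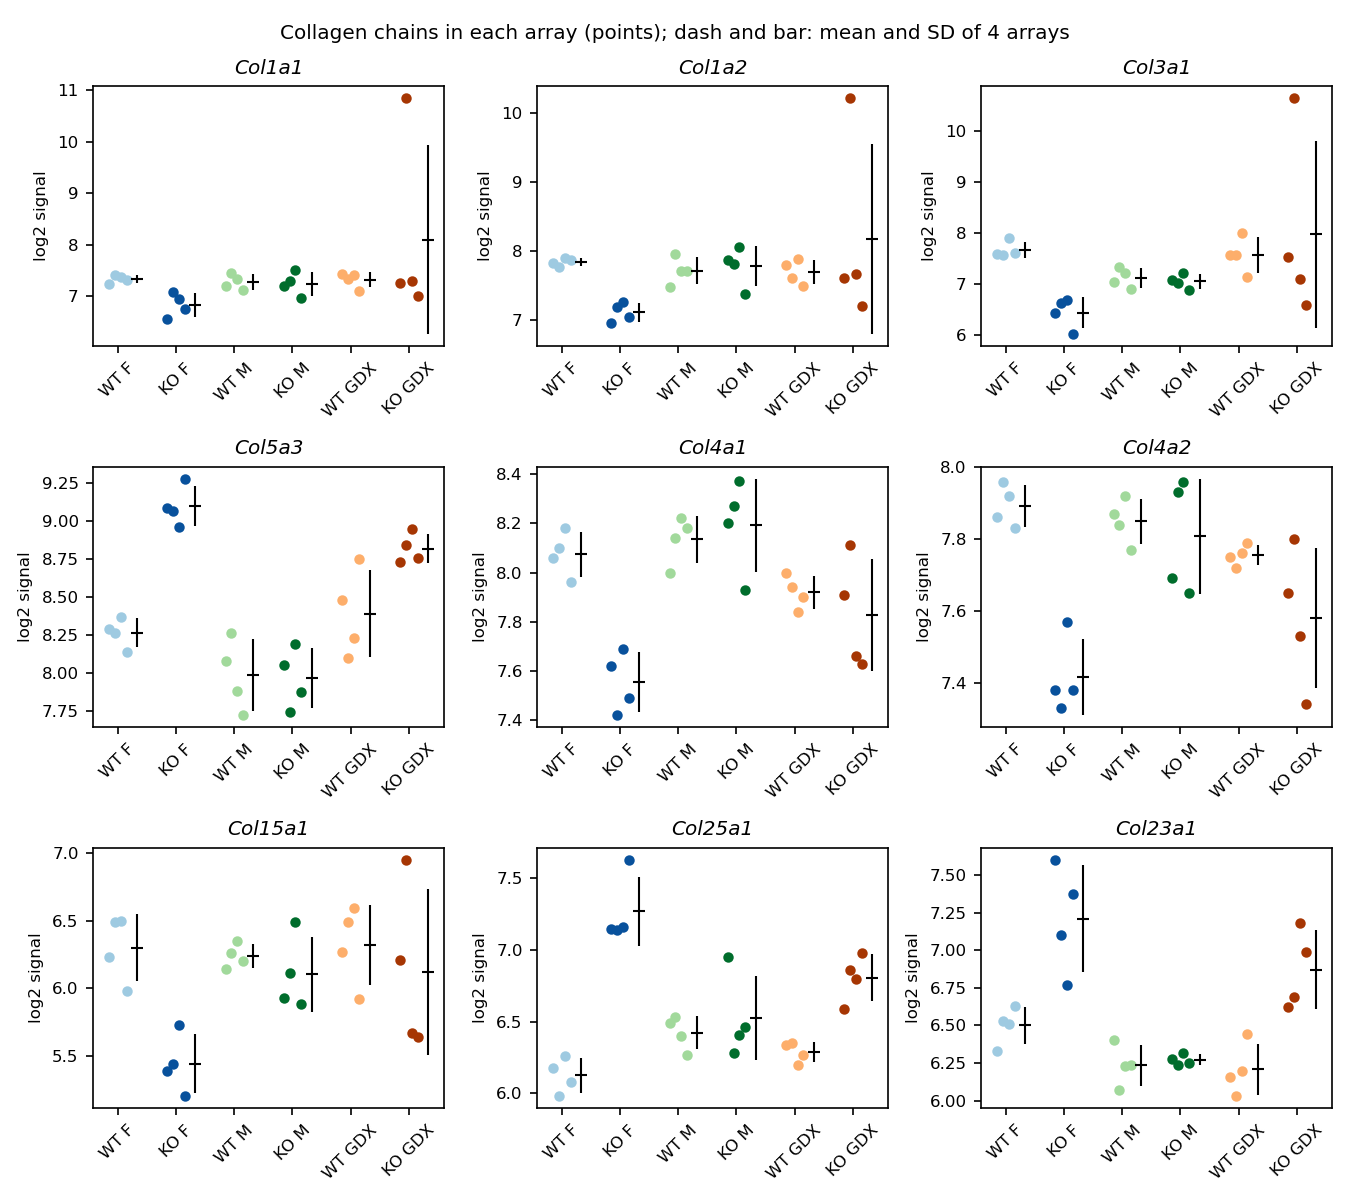
Log2 signal (y axis) of 9 collagen chains in each array (points) of the 6 groups (x axis; F female, M intact male, GDX gonadectomised male), with the mean and SD of 4 arrays as dash and bar. Col4a1 is lowest in KO females, Col5a3 and Col25a1 are highest there, and Col1a1 reaches 10.85 in KO GDX male array 2; y axes do not start at 0 and differ between panels.

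Among the other chains, 3 of the 4 transmembrane collagens rose in females and 0 fell (median 0.50). Col25a1 encodes a membrane collagen whose shed part is found in the amyloid plaques of the brain. Col25a1 had a log2 signal of 6.18, 5.98, 6.26 and 6.08 in WT female arrays 1 to 4 and of 7.15, 7.14, 7.16 and 7.63 in KO female arrays. In intact males Col25a1 was 6.49, 6.53, 6.40 and 6.27 in WT and 6.95, 6.28, 6.41 and 6.46 in KO arrays. GDX males showed 6.34, 6.35, 6.20 and 6.27 in WT and 6.59, 6.86, 6.80 and 6.98 in KO arrays. All KO female arrays were above every other array, and all KO GDX male arrays were above the WT GDX male arrays. Col23a1 encodes a membrane collagen that can be shed from the cell surface. WT female arrays 1 to 4 gave a log2 signal of 6.33, 6.53, 6.51 and 6.63 for Col23a1, and KO female arrays gave 7.60, 7.10, 6.77 and 7.37. In intact males Col23a1 was 6.40, 6.07, 6.23 and 6.24 in WT and 6.28, 6.24, 6.32 and 6.25 in KO arrays. Among GDX males, the WT arrays read 6.16, 6.03, 6.20 and 6.44 and the KO arrays 6.62, 6.69, 7.18 and 6.99. Its KO female arrays and KO GDX male arrays each lay above all WT arrays of the same kind, while WT and KO intact males overlapped. The change in females was 1.14 ± 0.12 for Col25a1 (2.21-fold; adjusted p = 8.57e-07) and 0.71 ± 0.14 for Col23a1 (1.64-fold; adjusted p = 0.000557). Col13a1, a collagen of cell contacts and the neuromuscular junction, rose by 0.28 ± 0.10 (adjusted p = 0.025), a call lost without WT female array 2 (0.23, adjusted p = 0.0923), KO female array 3 (0.25, adjusted p = 0.0724) or KO female array 4 (0.23, adjusted p = 0.0951). The remaining transmembrane chain, Col17a1 of the hemidesmosome, differed by 0.04.

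The promoter windows of Col25a1 (chr3:130180595-130180894, plus strand) and Col23a1 (chr11:51289670-51289969, plus strand; both RefSeq, GRCm38.p6) are shown because these chains were called in females and in GDX males. Capitals mark the GC box GGGCGG, searched on both strands.
Col25a1: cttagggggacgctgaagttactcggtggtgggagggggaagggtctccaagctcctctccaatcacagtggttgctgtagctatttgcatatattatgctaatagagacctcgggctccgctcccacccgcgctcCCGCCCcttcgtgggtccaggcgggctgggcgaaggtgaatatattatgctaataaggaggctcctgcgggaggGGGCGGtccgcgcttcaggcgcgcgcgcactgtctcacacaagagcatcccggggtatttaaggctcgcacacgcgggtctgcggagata
Col23a1: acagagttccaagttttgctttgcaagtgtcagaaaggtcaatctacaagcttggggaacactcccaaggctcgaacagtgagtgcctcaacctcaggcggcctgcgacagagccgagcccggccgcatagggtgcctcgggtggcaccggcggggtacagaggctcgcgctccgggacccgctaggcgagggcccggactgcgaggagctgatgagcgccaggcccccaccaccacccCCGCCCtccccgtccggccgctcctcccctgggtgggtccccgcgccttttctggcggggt
The Col25a1 window holds 2 GC boxes and that of Col23a1 holds 1. The motif occurs in 35.7% of all promoter windows and in 22 of the 35 collagen chains with a window.

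Of the beaded filament and fibril-associated chains, 1 of 5 and 0 of 7 rose, and 0 and 1 fell. Col6a1, a chain of the collagen VI filaments around cells, rose by 0.46 ± 0.14 (adjusted p = 0.0158). Its partner chains Col6a2 and Col6a3 differed in the other direction, by -0.30 ± 0.24 (adjusted p = 0.353) and -0.40 ± 0.21 (adjusted p = 0.164), and Col6a3 was called without KO GDX male array 2 (adjusted p = 0.00958). The additional collagen VI chain Col6a6 differed by 0.29 ± 0.14 in females (adjusted p = 0.121, and 0.0361 without KO GDX male array 2), and the log2 signal of Col6a6 in arrays 1 to 4 was 5.70, 5.73, 5.81 and 5.83 in WT females and 6.20, 5.91, 6.01 and 6.11 in KO females. In intact males Col6a6 was 5.84, 5.80, 5.67 and 5.75 in WT and 6.08, 5.85, 5.65 and 5.65 in KO arrays. The GDX males were at 6.03, 6.12, 6.03 and 5.66 (WT) and 6.01, 6.97, 6.34 and 6.34 (KO). All KO female arrays were above all WT female arrays, and KO GDX male array 2 was again the highest of the 24. Col12a1 encodes a collagen on the surface of collagen I fibrils. The log2 signal of Col12a1 in arrays 1 to 4 was 7.56, 7.38, 7.76 and 7.5 in WT females and 7.25, 6.62, 6.29 and 7.15 in KO females. In intact males Col12a1 was 7.15, 7.72, 7.46 and 7.35 in WT and 7.93, 7.59, 7.94 and 7.22 in KO arrays. GDX males showed 7.48, 7.10, 6.83 and 6.98 in WT and 7.18, 7.67, 6.97 and 6.48 in KO arrays. WT and KO female arrays did not overlap, while those of intact males did. The change of Col12a1 in females was -0.72 ± 0.23 (adjusted p = 0.0185). The call was lost without WT female array 3 (-0.65, adjusted p = 0.0562), KO female array 2 (-0.65, adjusted p = 0.0555) or KO female array 3 (-0.54, adjusted p = 0.0762).

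Markers of several other cell types moved in the same comparison. Of 11 capsule and mesenchyme markers (such as Gli1, Pdgfra and Dcn), 10 fell and 0 rose in KO females, and their mean log2 signal was 7.19 to 7.38 in KO against 8.13 to 8.23 in WT arrays. Of 10 chromaffin cell markers of the medulla, 7 fell, with means of 8.83 to 9.41 against 9.48 to 9.88. Of 9 adipocyte markers 5 fell (7.28 to 8.0 against 8.41 to 9.68), of 9 mural cell markers 3 fell (7.13 to 7.32 against 7.39 to 7.56), and of 10 endothelial markers 1 fell (8.45 to 8.66 against 8.66 to 8.78). Of 9 macrophage markers 4 rose (7.71 to 8.80 against 7.13 to 7.47). Without KO GDX male array 2 in the fit, 8 macrophage markers rose and 11 of 11 capsule and mesenchyme markers fell. Of the 10 adrenal cortex markers 6 rose and 0 fell, with means of 11.90 to 12.01 in KO against 11.54 to 11.64 in WT arrays. Without KO GDX male array 2 in the fit, 5 of these cortex markers rose, and Star lost its call. With the chromaffin mean as a covariate, 8 collagen chains were called in females, all among the 13. The differences of the 5 chains no longer called were -0.45 for Col4a3, 0.28 for Col13a1, 0.35 for Col5a1, -0.58 for Col12a1 and 0.31 for Col6a1 (adjusted p = 0.0512 to 0.246), all with a wider SE than without the covariate, and the first 3 kept at least 90% of their size. With the adipocyte mean as a covariate, 6 were called, of which 5 were among the 13. The 8 chains no longer called then had 63% to 100% of their former difference, again all with a wider SE (adjusted p = 0.0624 to 0.22). They were Col4a3, Col4a4, Col4a5 and Col15a1 of the basement membrane class, and Col5a1, Col6a1, Col12a1 and Col13a1. Col4a1, Col4a2, Col5a3, Col23a1 and Col25a1 kept their calls in females under both covariates and without any single array of their groups. The part of the cortex, capsule, mural, endothelial and macrophage markers in the collagen changes was not tested.

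**Figure D4:**
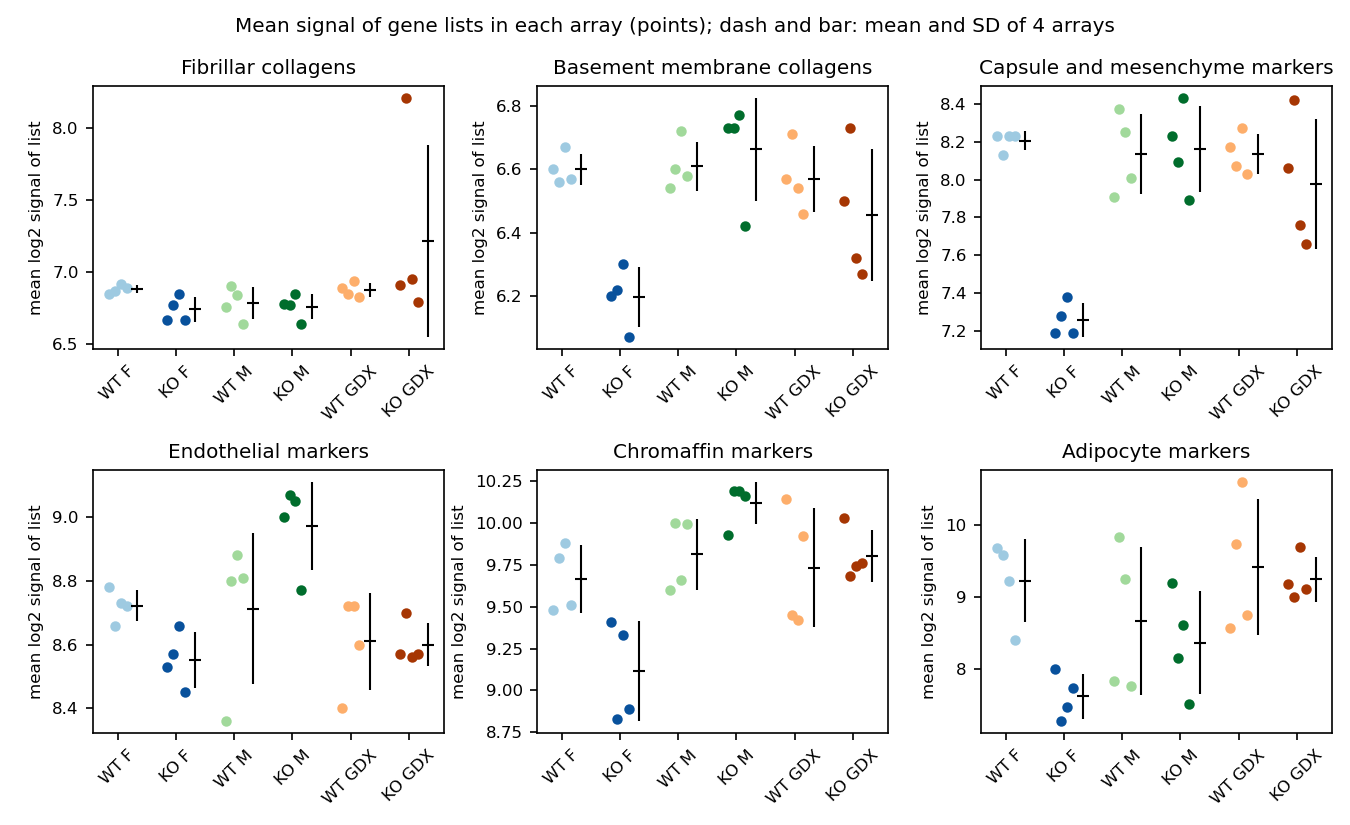
Mean log2 signal (y axis) of 2 collagen classes and 4 lists of cell type markers in each array (points) of the 6 groups (x axis), with the mean and SD of 4 arrays as dash and bar. Basement membrane collagens (6.07 to 6.30) and capsule and mesenchyme markers (7.19 to 7.38) are lowest in KO females; the fibrillar mean of 8.21 is KO GDX male array 2, and y axes do not start at 0.

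In intact males no collagen chain was called between KO and WT, where 0.111% of all genes were (0.0694% higher and 0.0416% lower, and 7.49% at an unadjusted p under 0.05). At an unadjusted p under 0.05, 1 of 37 chains differed. This was Col18a1, at 6.38, 6.52, 6.54 and 6.55 in WT and 7.17, 6.77, 6.98 and 6.76 in KO arrays 1 to 4. All KO arrays were higher, and the difference was 0.42 ± 0.12 (unadjusted p = 0.00199, adjusted p = 0.279). The other chains differed by -0.20 to 0.25, with a median of 0.04 over all 37. The 95% confidence intervals were -0.29 to 0.24 for Col5a3, -0.16 to 0.36 for Col25a1 and -0.25 to 0.33 for Col23a1. For Col3a1, whose spread includes KO GDX male array 2, the interval was -1.12 to 0.98, and without that array the difference of -0.07 had an SE of 0.18. Leaving KO GDX male array 2 out of the fit also gave 0 called chains, with 0.125% of all genes called. All 10 endothelial markers (by 0.12 to 0.39) and all 10 chromaffin markers (by 0.14 to 0.90) were higher on average in KO than in WT intact males, with 0 called in limma and 6 and 2 at an unadjusted p under 0.05.

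The KO effect itself differed between females and intact males for 7 of 37 chains, where 16% of all genes did (7.19% with a higher and 8.78% with a lower effect in females). These were Col4a1 and Col4a2 (above), Col12a1 (-0.97 ± 0.32, adjusted p = 0.0439), Col5a1 (0.56 ± 0.16, adjusted p = 0.0221), Col5a3 (0.86 ± 0.18, adjusted p = 0.0036), Col23a1 (0.67 ± 0.20, adjusted p = 0.0257) and Col25a1 (1.04 ± 0.18, adjusted p = 0.000734). By class, 2 of 7 basement membrane, 2 of 9 fibrillar and 3 of 21 other chains differed, and the median difference was -0.44, -0.11 and 0.06. Leaving out KO GDX male array 2 added Col1a2 (-0.80, adjusted p = 0.00719), Col3a1 (-1.16, adjusted p = 0.00572), Col6a3, Col15a1 and Col6a1 for a count of 12 chains, with 16.3% of all genes called. With the chromaffin mean as a covariate 1 chain was called, and with the adipocyte mean 4. Under the chromaffin covariate Col23a1 (0.66) and Col5a1 (0.54) differed by nearly as much as without it, while Col4a1 (-0.38), Col4a2 (-0.35), Col12a1 (-0.75) and Col25a1 (0.82) had 67% to 80% of their former difference, and all 6 had a wider SE (adjusted p = 0.0567 to 0.392). Under the adipocyte covariate the chains no longer called were Col23a1 (0.64), Col5a1 (0.49) and Col12a1 (-0.83), also with a wider SE (adjusted p = 0.0548 to 0.117). Among chromaffin markers 9 of 10, among capsule and mesenchyme markers 9 of 11, among adipocyte markers 3 of 9 and among endothelial markers 2 of 10 also had a lower KO effect in females than in intact males, and 3 of 10 cortex and 1 of 9 macrophage markers had a higher one. Without KO GDX male array 2, 8 chromaffin and 11 capsule and mesenchyme markers had a lower effect, and 2 macrophage markers a higher one. Several calls depended on single arrays: 4 chains were called without WT intact male array 1. Col12a1 lost its call without any of 12 single arrays of the 4 groups (adjusted p up to 0.0931), Col5a1 without WT intact male array 1 (0.52, adjusted p = 0.0503), and Col23a1 without WT female array 1, KO female arrays 1 or 4 or WT intact male array 1 (0.54 to 0.62, adjusted p = 0.0525 to 0.0588).

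In GDX males 2 chains rose with the knockout and 0 fell, against 2.26% and 1.97% of all genes (4.23% in either direction). The 609 genes behind this background became 1180 without KO GDX male array 1, and 391, 214 and 225 without KO GDX male arrays 2, 3 and 4, and 281 and 287 without WT GDX male arrays 2 and 3. The chains were the transmembrane chains Col23a1 (0.66 ± 0.14, 1.58-fold; adjusted p = 0.0101) and Col25a1 (0.52 ± 0.12, 1.43-fold; adjusted p = 0.0202), whose KO and WT arrays did not overlap. The calls depended on single arrays. Col23a1 was not called without KO GDX male array 3 (0.56, adjusted p = 0.0532). Col25a1 was not called without WT GDX male array 3 (0.49, adjusted p = 0.0664) or KO GDX male arrays 2 (0.50, adjusted p = 0.0522), 3 (0.52, adjusted p = 0.0607) or 4 (0.46, adjusted p = 0.0883). In the fit of the 8 GDX arrays alone neither was called (adjusted p = 0.076 and 0.0556). Without KO GDX male array 1, 4 chains were called, all of them higher in KO.

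Of the 10 adrenal cortex markers 3 rose in KO GDX males, with means of 11.80 to 11.90 against 11.51 to 11.72 in WT. Among the capsule and mesenchyme markers, Rspo3 was called between KO and WT GDX males, but not without KO GDX male array 2. That array read 8.37, against 8.34 to 9.0 in the other arrays of its group. The part of these markers in the collagen values was not tested. Below the threshold in GDX males were Col5a3 (0.43 ± 0.13, adjusted p = 0.0587), Col6a6 (0.46 ± 0.14, adjusted p = 0.0689, and 0.27 ± 0.11 without KO GDX male array 2) and Col13a1 (0.28 ± 0.10, adjusted p = 0.0968). The basement membrane class had a median of -0.18 with 0 of 7 called, among them Col4a2 at -0.18 ± 0.08 (adjusted p = 0.253). All 9 fibrillar chains had a positive difference with 0 called, but for 4 of them the sign came from a single array. Col1a1, Col1a2, Col3a1 and Col5a2 differed by 0.78, 0.48, 0.40 and 0.33 with KO GDX male array 2 and by -0.13, -0.20, -0.50 and -0.05 without it, and none was called either way. The median over the 37 chains was 0.14 with and 0.01 without that array. Without that array 1 chain rose (Col23a1) and 1 fell, Col6a5 (-0.82 ± 0.22, adjusted p = 0.0488), with 2.71% of all genes called. Col6a5, a further collagen VI chain, was 6.56, 5.96, 6.33 and 5.82 in WT and 5.71, 7.35, 5.31 and 5.03 in KO GDX male arrays 1 to 4, so that the KO arrays other than array 2 are the low ones. The difference of the KO effect between GDX and intact males was called for 0 of 37 chains (0.0278% of all genes, 0.0208% higher and 0.00694% lower), with and without KO GDX male array 2, while 8 chains had an unadjusted p under 0.05 in limma, as did 9.44% of all genes. The largest of these was Col23a1 (0.63 ± 0.20, adjusted p = 0.288).

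Between WT females and WT intact males, 2 chains were lower in females and 0 higher, against 4.02% and 3.73% of all genes (7.75% in either direction). Col28a1, a collagen best known from Schwann cells, was 4.72, 4.81, 5.0 and 4.59 in WT female and 5.04, 5.43, 5.16 and 5.51 in WT intact male arrays 1 to 4. In KO arrays it was 4.78, 4.56, 4.99 and 4.64 in females and 5.24, 5.44, 5.32 and 5.36 in intact males. In GDX males it was 5.11, 5.26, 4.95 and 5.0 in WT and 4.98, 5.11, 5.18 and 4.93 in KO arrays. All intact male arrays were above all female arrays, the GDX arrays overlapped both, and the female arrays lay around or under the threshold of log2 5 used for the filter. The difference between WT sexes was -0.51 ± 0.11 (adjusted p = 0.00507), and in KO mice it was -0.60 ± 0.11 (adjusted p = 0.000158). The mean of the 3 Schwann and nerve markers was 4.98 to 5.21 in WT females and 5.11 to 5.38 in WT intact males.

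Col16a1 encodes a fibril-associated collagen, and the log2 signal of Col16a1 in arrays 1 to 4 was 5.90, 5.80, 5.87 and 5.95 in WT females and 5.54, 5.82, 5.69 and 5.65 in KO females. In intact males Col16a1 was 5.99, 6.24, 6.35 and 6.25 in WT and 5.97, 6.36, 6.07 and 5.82 in KO arrays. Among GDX males, the WT arrays read 5.87, 5.79, 5.94 and 5.91 and the KO arrays 5.98, 5.91, 5.92 and 5.92. WT intact male arrays were above all WT female and all WT GDX male arrays. The difference was -0.33 ± 0.09 between WT females and WT intact males (adjusted p = 0.0266) and -0.33 ± 0.09 between WT GDX and WT intact males (adjusted p = 0.0387). These comparisons share the WT intact male arrays and so are not independent. Col16a1 was the only chain called for gonadectomy in WT mice, lower and none higher, where 4.5% of all genes were called (1.94% higher and 2.55% lower). With KO GDX male array 2 left out of the shared fit the counts of both comparisons were the same, with 4.8% of all genes called for gonadectomy and 7.81% between WT sexes. The gonadectomy call was lost without any of 7 single arrays (adjusted p = 0.0581 to 0.137), WT intact male array 1 excepted. The sex call was lost without WT female arrays 1, 2 or 3 or WT intact male arrays 2, 3 or 4 (adjusted p = 0.0545 to 0.103).

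Between KO females and KO intact males, 5 chains were higher in females and 9 lower, against 17.8% and 23.1% of all genes (41% in either direction). The median was -0.17 over the chains and -0.02 over all genes. Of the basement membrane chains, 6 of 7 were lower, with Col4a1 at -0.64 ± 0.10 (adjusted p = 3.1e-05), Col4a4 at -0.52 ± 0.11 (adjusted p = 0.00067), Col15a1 at -0.67 ± 0.22 (adjusted p = 0.0179), and Col4a2, Col4a3 and Col18a1 at -0.40, -0.51 and -0.38. Col5a3 (1.14 ± 0.13, 2.21-fold; adjusted p = 6.53e-07) and Col5a1 (0.44 ± 0.11, adjusted p = 0.00347) were higher, as were Col23a1 (0.94 ± 0.14, adjusted p = 2.01e-05), Col25a1 (0.75 ± 0.12, adjusted p = 5.91e-05) and Col9a3 (0.35 ± 0.11, adjusted p = 0.0116), a chain of cartilage collagen IX. Col12a1 (-0.85 ± 0.23, adjusted p = 0.0049) and Col16a1 (-0.38 ± 0.09, adjusted p = 0.00173) were lower. All these values share the KO female arrays with the KO effect in females. Without KO GDX male array 2, Col1a1, Col1a2, Col3a1, Col6a2 and Col6a3 were also called lower, for 5 higher and 14 lower, with 41.3% of all genes called. Chromaffin (10 of 10), capsule and mesenchyme (9 of 11), endothelial (9 of 10), adipocyte (3 of 9), mural (3 of 9) and Schwann and nerve (1 of 3) markers were lower in the same comparison, and adrenal cortex (6 of 10) and macrophage (4 of 9) markers were higher. Without KO GDX male array 2, 10 capsule and mesenchyme markers were lower, and 5 cortex and 5 macrophage markers were higher. With the chromaffin mean as a covariate, 3 chains were called. The other 11 chains had a wider SE (adjusted p = 0.0642 to 0.6). Of these, Col4a3 (-0.64), Col15a1 (-0.64), Col16a1 (-0.39) and Col5a1 (0.42) kept at least 90% of their difference, and the others had 40% (Col28a1, -0.24) to 76% (Col18a1, -0.28) of it. Col15a1 lost its call without KO female array 4 (-0.58, adjusted p = 0.059) or KO intact male array 3 (-0.53, adjusted p = 0.0746), and Col18a1 without KO intact male array 1 (-0.29, adjusted p = 0.0689).

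Gonadectomy of KO males was accompanied by 6 chains higher and 3 lower than in intact KO males, against 6.85% and 8.59% of all genes (15.4% in either direction). Higher were Col5a3 (0.86 ± 0.13, adjusted p = 0.000164), Col5a1 (0.48 ± 0.11, adjusted p = 0.00676), Col6a6 (0.61 ± 0.14, adjusted p = 0.00616), Col23a1 (0.60 ± 0.14, adjusted p = 0.00659), Col9a3 (0.32 ± 0.11, adjusted p = 0.0434) and Col17a1 (0.29 ± 0.10, adjusted p = 0.0489). Col17a1 was near the filter threshold of log2 5, exceeded by 4 of 4 KO GDX male but 1 of 4 KO intact male arrays (mean 4.87), so its difference is between dim signals. Lower were Col4a1 (-0.36 ± 0.10, adjusted p = 0.016), Col4a4 (-0.36 ± 0.11, adjusted p = 0.0312) and Col20a1 (-0.26 ± 0.08, adjusted p = 0.0311). Leaving KO GDX male array 2 out gave counts of 4 higher and 5 lower, with 11.5% of all genes called: Col18a1 (-0.42, adjusted p = 0.00939), Col4a2 (-0.30, adjusted p = 0.0233) and Col12a1 (-0.79, adjusted p = 0.0258) were added, and Col4a4, Col9a3 and Col17a1 were lost. The change of Col5a1 was then 0.31 (adjusted p = 0.00978) and that of Col6a6 0.42 (adjusted p = 0.0197). The values of Col5a3 (0.85) and Col23a1 (0.66) were close to those with all arrays. Counts fell to 5 without KO intact male array 2 or 3 or KO GDX male array 4, to 4 without KO GDX male array 3 and to 4 with only these groups' arrays in the fit. In that last fit Col5a3, Col23a1 and Col9a3 kept their calls and the other 6 lost them, among them Col5a1 (0.48, adjusted p = 0.082) and Col6a6 (0.61, adjusted p = 0.0668). In the shared fit Col5a1, Col5a3, Col6a6 and Col23a1 were called without any single array of the groups, and each of the other 5 chains lost its call without at least 4 of the 8 arrays (adjusted p up to 0.202). Endothelial markers were lower for 6 of 10, chromaffin markers for 2 of 10 and capsule and mesenchyme markers for 2 of 11 in this comparison, and 2 of 9 adipocyte and 2 of 10 cortex markers were higher. Without KO GDX male array 2, 6 endothelial, 0 chromaffin and 2 capsule and mesenchyme markers were lower, and 1 adipocyte and 1 cortex marker were higher. With the chromaffin mean as a covariate 5 chains were called, and Col17a1, Col20a1, Col4a1 and Col9a3 had 77% to 84% of their difference with a wider SE (adjusted p = 0.0843 to 0.188). The part of the endothelial markers was not tested.

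Chains that share a molecule, or a fibril in the case of Col1a1 and Col3a1, were compared within groups over 24 arrays and 5 pairs. Group means were removed first. Pearson's r was tested by two-sided permutation within groups, with Benjamini-Hochberg adjustment over the 5 pairs. Col1a1 and Col1a2 moved together (r = 0.98, permutation p = 5e-05, adjusted p = 0.00025; Spearman's rho = 0.88, permutation p = 0.00018). So did Col1a1 and Col3a1 (r = 0.97, permutation p = 0.00026; rho = 0.84, permutation p = 0.00032) and Col4a1 and Col4a2 (r = 0.80, permutation p = 0.00071; rho = 0.76, permutation p = 0.00183). Without the 2 arrays farthest from the median of the first chain, r was 0.81, 0.63 and 0.65, and without KO GDX male array 2 it was 0.82, 0.67 and 0.73. Across all 14410 other genes and without that array, Col1a2 had the highest correlation with Col1a1, Col3a1 was at rank 42, and Col4a2 was at rank 44 with Col4a1.

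The collagen V and VI pairs differed from these. Col5a1 and Col5a2 had r = 0.74 (permutation p = 0.132, adjusted p = 0.166; rho = 0.37, permutation p = 0.162) with all arrays, which was -0.02 without KO GDX male array 2 and -0.05 without the 2 farthest arrays, so that it rested on that array. Col6a1 and Col6a2 had r = 0.53 (permutation p = 0.248, adjusted p = 0.248; rho = -0.04, permutation p = 0.873), which was -0.45 and -0.54 under the same omissions. Spearman's rho without KO GDX male array 2 was -0.58 for this pair (permutation p = 0.00893, adjusted p = 0.0112), while r did not pass (permutation p = 0.0578, adjusted p = 0.0723). With that array left out, Col5a2 was at rank 8868 for Col5a1 and Col6a2 at rank 13943 for Col6a1 among the 14410 genes. Values of a pair come from the same gland, hybridisation and normalization.

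Genes that modify, process, cross-link, degrade or bind collagen were counted from a fixed list of which 65 were tested. In females 8 rose and 22 fell with the knockout (all genes 13.9% and 18.7%), with a median of -0.19. Without KO GDX male array 2 in the fit, 8 rose and 25 fell: the same 30 genes and, in addition, Adamts3, Mrc2 and Timp1. Of the 14 genes of hydroxylation and glycosylation, which stabilise the triple helix, 1 rose and 5 fell. P3h2, a prolyl 3-hydroxylase that acts on collagen IV, fell by 0.78 ± 0.14 (adjusted p = 0.000168) and Crtap, a partner of prolyl 3-hydroxylase, by 0.69 ± 0.11 (adjusted p = 6.2e-05). Of 6 folding and secretion genes, 3 rose and 1 fell. Serpinh1, the collagen chaperone HSP47, fell by 0.63 ± 0.15 (adjusted p = 0.00292), while Sec24d, a coat protein of the vesicles that export procollagen, rose by 0.59 ± 0.20 (adjusted p = 0.0245). Of 6 procollagen processing genes 2 fell, the enhancers Pcolce (-0.41 ± 0.10, adjusted p = 0.00242) and Pcolce2 (-0.38 ± 0.13, adjusted p = 0.0254).

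Of 5 cross-linking enzymes 1 rose, Loxl4 (1.10 ± 0.11, 2.15-fold; adjusted p = 2.84e-07), and 1 fell, Loxl1 (-0.58 ± 0.20, adjusted p = 0.0288). Of 11 genes of degradation and its inhibitors, 1 rose and 4 fell, led by Mmp2, a gelatinase that cleaves collagen IV (-1.66 ± 0.43, 3.15-fold lower; adjusted p = 0.00524), and Fap, a fibroblast protease (-0.56 ± 0.12, adjusted p = 0.00103). Mmp2 was also high in KO GDX male array 2, at 8.48 against 6.04 to 6.88 in the rest of its group, and without that array its change in females had an SE of 0.33 (adjusted p = 0.000694). Of 8 receptors 1 rose and 2 fell. Itga2, the integrin subunit that binds collagen I, rose by 2.97 ± 0.25 (7.85-fold; adjusted p = 8.89e-08), and the collagen-binding kinase Ddr2 fell by 0.64 ± 0.12 (adjusted p = 0.000461). Of 15 basement membrane partners 1 rose and 7 fell, among them the laminin chains Lama2 (-0.90 ± 0.13, adjusted p = 2.8e-05) and Lama1 (-0.88 ± 0.13, adjusted p = 2.61e-05). In intact males 0 of 65 were called. In GDX males Itga2 (1.56 ± 0.25, 2.94-fold; adjusted p = 0.00184) and Loxl4 (0.41 ± 0.11, adjusted p = 0.0339) rose and the laminin chain Lama5 fell (-0.38 ± 0.09, adjusted p = 0.0174). Without KO GDX male array 2, Itga2 (1.75, adjusted p = 0.00129) and Lama5 (-0.36, adjusted p = 0.048) were called in GDX males and Loxl4 was not (0.41, adjusted p = 0.0668).

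Across all groups, 18 of 37 chains differed among the 6 group means (moderated F test in limma, adjusted p under 0.05), where 47.6% of all genes did, and 25 did so without KO GDX male array 2 (46.7% of all genes).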

How the data were processed

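Total RNA from 24 whole adrenal glands was labelled and hybridised to Affymetrix arrays. The values used are log2 signals that the authors deposited; RMA is named in the submitters' processing notes, with no version or program for it in the sources used here. Array medians of the deposited log2 values were 5.20 to 5.29, and within-group correlations 0.989 to 0.995. The number of arrays limits the precision. Of 32202 probe sets, 22943 carry 1 gene symbol in GEO's platform annotation, 1731 several and 7528 none; symbols can be old. No further normalization was applied.

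The probe set with the highest mean stood for a gene. Genes over log2 5 in at least 4 arrays were fitted in limma 3.58.1 (R 4.3.3) with 1 mean per group over all 24 arrays, no covariate, and Benjamini-Hochberg adjustment over all genes. P-values rest on 1 estimate of spread per gene, pooled over the 4 arrays within each of the 6 groups and moderated in limma. They do not measure the spread of the compared groups alone. Members and lists were chosen with earlier results of these data known. Values in every array are given for Col1a1, Col3a1, Col4a1 and Col4a2 and for the 2 called chains of largest change in each comparison and class; list genes are the 2 called of largest change per sublist. Others named for a single array were chosen after their values were seen. The script was tested on simulated data.

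Replicate numbers were checked for pairing: same-numbered arrays of WT and KO GDX males correlated in their deviations (r 0.12 to 0.24). Over all 60 same-numbered pairs of different groups, r was -0.31 to 0.24. Whether the GDX male arrays were paired is therefore not settled. The numbers come from the sample titles, which do not say what they share. Results for GDX males are from the fit without pairing. The replicate block below spans all groups, and a fit paired in GDX males alone was not made. In the other comparisons at least 1 pair had r of 0.1 or less. Alternatives were another round of quantile normalization, no filter or a stricter one (log2 6), the mean of all probe sets, fewer arrays in the fit, trend and robust options of eBayes, a replicate block, chromaffin or adipocyte marker means as covariates, and leaving out each array. The fits without KO GDX male array 2 were chosen after seeing the data for comparisons that do not hold it. Promoter windows are from a RefSeq table of GRCm38.p6.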

Additional observations from a re-analysis of the deposited data

Results flagged for a closer look

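Sets of 4 arrays were tested for 84 pairs of chain and group and 24 pairs of class mean and group. In 12 of them 1 array lay so far from the rest that its gap to the nearest one passed the 95% critical value of Dixon's test, which chance alone gives in about 1 in 20 sets. KO GDX male array 2 was such an array for Col1a1 (10.85, nearest 7.29) and for the mean of all collagen chains (7.07), of fibrillar chains (8.21) and of other chains (6.69). The remaining cases were smaller. They were Col16a1 in KO GDX male array 1 (5.98), Col25a1 in KO female array 4 (7.63), Col3a1 in WT female array 3 (7.90), Col4a4 in KO intact male array 4 (5.59, low) and in WT GDX male array 2 (6.08), the mean of all chains in KO female array 3 (6.42) and in WT GDX male array 4 (6.39, low), and the mean of basement membrane chains in KO intact male array 4 (6.42, low).

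The KO effect in females minus that in intact males differed for 7 of 37 chains by the interaction test in limma. In the same test 16% of all genes differed. The difference was -0.57 for Col4a1, -0.44 for Col4a2, 0.56 for Col5a1, 0.86 for Col5a3, -0.97 for Col12a1, 0.67 for Col23a1 and 1.04 for Col25a1. With the chromaffin mean as a covariate 1 chain was called, and 278 in place of 2302 over all genes.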

How the results depend on the processing

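Counts of collagen chains called were most often within 1.5 times of those with all arrays and no covariate. With only a comparison's own arrays they were 0 in place of 2 for KO in GDX males, 0 in place of 1 for gonadectomy in WT, 4 in place of 9 for gonadectomy in KO and 13 in place of 7 for the sex difference of the KO effect. With the chromaffin covariate they were 8 in place of 13 for KO in females, 3 in place of 14 between KO sexes, 5 in place of 9 for gonadectomy in KO and 1 in place of 7 for the sex difference. With the adipocyte covariate they were 6 for KO in females, 0 for gonadectomy in WT and 4 for the sex difference. The stricter filter left 1 of 2 chains between WT sexes, and no filter left 0 for gonadectomy in WT. The cause was not tested. The stricter filter and no filter also change how many genes are tested. Leaving out 1 array gave 11 to 19 chains for KO in females, 0 to 0 in intact males, 0 to 4 in GDX males, 1 to 2 between WT sexes, 13 to 19 between KO sexes, 0 to 1 and 4 to 10 for gonadectomy in WT and KO, 4 to 12 for the sex difference, 0 to 0 for the gonadectomy difference, 14 to 25 for any difference and 3 to 3 chain pairs. With the replicate block, 14 chains were called for KO in females and 4 chain pairs were called; every other count of chains was as without it, such as 2 for KO in GDX males. Leaving out 1 array put the KO difference in GDX males at -0.13 to 1.15 for Col1a1, -0.20 to 0.81 for Col1a2 and -0.50 to 0.86 for Col3a1, with the lowest, of opposite sign, without KO GDX male array 2. Counts over all genes moved with only own arrays for KO in intact males (16 to 0), KO in GDX males (609 to 49), gonadectomy in WT (648 to 149) and the gonadectomy difference (4 to 9). With the chromaffin covariate they were 2546 in place of 4694 for KO in females, 1146 in place of 5906 between KO sexes, 1194 in place of 2225 for gonadectomy in KO, 278 in place of 2302 for the sex difference and 4405 in place of 6859 for any difference. With the adipocyte covariate they were 25 for KO in intact males and 11 for the gonadectomy difference. The omissions of 1 array that moved the chain counts above also moved counts over all genes. These were 3881 to 4764 for KO in females, 4 to 24 in intact males and 214 to 1180 in GDX males. Between sexes they were 757 to 1316 in WT and 5208 to 5945 in KO. For gonadectomy they were 292 to 788 in WT and 1374 to 2662 in KO. The sex difference gave 1615 to 2481, the gonadectomy difference 2 to 88 and any difference 6118 to 6968. Some of these counts moved by more than 1.5 times. KO in intact males gave 8, 9 and 4 without WT intact male arrays 3 or 4 or KO intact male array 1. Gonadectomy in WT gave 292 to 386 without WT intact male arrays 2, 3 or 4 or WT GDX male arrays 2 or 3. Gonadectomy in KO gave 1374 to 1461 without KO intact male arrays 2 or 3 or KO GDX male array 3. The gonadectomy difference gave 30 and 88 without WT or KO GDX male array 1, 7 without KO intact male array 2, and 2 without KO intact male array 3, WT GDX male array 2 or KO GDX male arrays 3 or 4.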
